A study of Mus musculus with 12 samples.

Results

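The dermal adipocyte genes described here are Adipoq, Lep, Retn, Cfd, Plin1, Plin4, Cidec, Fabp4, Lpl and Ucp1. They were picked by symbol, as 10 of the 34303 gene symbols in the deposited table, and each symbol had 1 entry. The study sequenced RNA from 12 mouse libraries on a C57Bl6 background, with and without TAp63, the long amino-terminal form of the transcription factor p63. The groups were TAp63-/- cutaneous squamous cell carcinoma (cSCC, n = 4), WT cSCC (n = 2), TAp63-/- skin (n = 3) and WT skin (n = 3). The cSCC came from mice older than 35 weeks that had received chronic ultraviolet radiation (UVR) of 2.5 kJ/m2, 3 times a week, and the skin was dorsal skin of untreated mice aged 4 weeks. The labels give TAp63-/- as a genotype and name no cell type for the deletion, and the gene-level Trp63 value sums all p63 forms, so it does not check the genotype labels. The labels do not say whether the libraries of a group came from separate animals, and p-values therefore measure only the spread between these libraries.

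Mouse dorsal skin holds a layer of white adipocytes beneath the dermis that thickens and thins with the hair cycle. These cells store triglyceride in a large lipid droplet coated by perilipins and fused by CIDEC, take up fatty acids that lipoprotein lipase releases from circulating triglyceride, and secrete adipokines such as adiponectin, leptin and adipsin. UCP1, the uncoupling protein of brown fat, marks heat-producing adipocytes and is low in resting white fat. Mice that lack TAp63 are known for obesity and defects in fatty acid metabolism, and Sirt1, Prkaa2 and Stk11 have been described as TAp63 targets in that setting.

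Values are FPKM, fragments scaled by transcript length and library size, and so are levels per length that can be set beside each other between genes. All 12 columns shared practically a single distribution of values, with sums of 780180 to 780251 FPKM, so sequencing depth is unknown and no counting interval is given. Genes were tested where they reached 1 FPKM in at least 2 libraries, which 14752 symbols did. Of the 10 adipocyte genes, 9 passed. Ucp1 was listed at 0 in all 12 libraries, which does not by itself show absence. Lep reached 1 FPKM in a single cSCC library and passed through the skin libraries.

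Tissue, age, UVR and, in large part, sex went together. By Xist and Y-linked transcripts, 5 cSCC libraries were female, whereas TAp63-/- cSCC replicate 1 and the 6 skin libraries were male. Skeletal muscle markers separated the tissues without overlap. The mean log2(FPKM + 1) of 9 muscle genes was 2.24 to 4.40 in TAp63-/- cSCC and 3.68 to 5.71 in WT cSCC, against 8.46 to 9.49 in TAp63-/- skin and 8.67 to 8.77 in WT skin. Tissue, age, UVR and the amount of muscle in the piece cannot be told apart here, and in bulk RNA fewer adipocytes and less RNA per adipocyte cannot be told apart either.

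The adipocyte genes lie on 7 chromosomes. In mm10, Adipoq (ENSMUSG00000022878) spans chr16:23146536-23158028 on the plus strand, Lep (ENSMUSG00000059201) chr6:29060220-29073877 on the plus strand and Plin1 (ENSMUSG00000030546) chr7:79721164-79732776 on the minus strand. Plin4 (ENSMUSG00000002831) spans chr17:56100591-56109802 on the minus strand, Cidec (ENSMUSG00000030278) chr6:113424634-113435760 on the minus strand and Fabp4 (ENSMUSG00000062515) chr3:10204347-10208576 on the minus strand. Lpl (ENSMUSG00000015568) at chr8:68880491-68907448, Retn (ENSMUSG00000012705) at chr8:3655770-3660110 and Ucp1 (ENSMUSG00000031710) at chr8:83290348-83298456 share chromosome 8, all on the plus strand. Cfd (ENSMUSG00000061780) is at chr10:79890853-79892656 on the plus strand.

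The adipocyte genes moved together across the libraries, so their promoters were read for motifs of adipogenic factors. RefSeq (GRCm38.p6) gave 9 start-site windows, from 250 bases before to 50 bases after the start, for 8 of the 10 genes, and Fabp4 and Lpl had no entry. The letters TTNNGNAA, the core bound by C/EBP factors, occurred on either strand in 5 of the 9 windows, against 40.7% of 32851 mouse windows of the same length. The full palindrome TTGCGCAA, which is contained in that pattern, occurred in the Lep window alone, 55 bases before the start, and in 0.183% of all windows. The windows of Lep (chr6:29059971-29060270, plus strand), Adipoq (chr16:23146286-23146585, plus strand) and Plin1 (chr7:79732727-79733026, minus strand) are printed 5′ to 3′ because these are the genes that passed the test in both genotypes below. Capitals mark each match to TTNNGNAA on either strand.
Lep: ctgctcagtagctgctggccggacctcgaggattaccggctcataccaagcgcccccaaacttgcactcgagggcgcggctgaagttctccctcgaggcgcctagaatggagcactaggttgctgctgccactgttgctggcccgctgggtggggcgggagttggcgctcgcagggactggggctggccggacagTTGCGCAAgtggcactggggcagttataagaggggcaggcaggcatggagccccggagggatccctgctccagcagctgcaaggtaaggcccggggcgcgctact
Adipoq: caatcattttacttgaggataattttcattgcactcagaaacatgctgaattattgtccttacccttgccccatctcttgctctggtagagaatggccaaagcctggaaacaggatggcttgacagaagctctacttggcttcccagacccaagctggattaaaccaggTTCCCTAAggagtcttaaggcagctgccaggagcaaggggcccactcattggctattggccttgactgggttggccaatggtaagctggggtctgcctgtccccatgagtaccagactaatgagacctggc
Plin1: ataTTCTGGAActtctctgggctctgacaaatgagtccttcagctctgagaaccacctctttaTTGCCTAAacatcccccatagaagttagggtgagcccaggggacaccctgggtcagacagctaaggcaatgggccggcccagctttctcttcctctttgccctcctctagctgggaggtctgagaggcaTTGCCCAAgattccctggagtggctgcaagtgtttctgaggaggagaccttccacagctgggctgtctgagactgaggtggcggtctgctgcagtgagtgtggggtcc
The Lep window holds a single match, the palindrome, the Adipoq window a single match 81 bases before the start, and the Plin1 window 3 matches. TATAAA and CACGTG were in 0 of the 9 windows, against 13.6% and 7.15% of all windows. AGGTCA, the core read by nuclear receptors, was in 1 window, that of Ucp1, against 16.3%, and the direct repeat of that core with a single base between, bound by PPAR with RXR, in 0 of 9, against 0.0396%. All motifs were searched on both strands, and a match describes letters, not binding.

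Of the secreted products, adiponectin (Adipoq), the insulin-sensitising adipokine, had 4.40, 6.37, 0.545 and 1.76 FPKM in TAp63-/- cSCC, against 234, 37.2 and 53.2 FPKM in TAp63-/- skin. In the other genotype it had 3.33 and 25.3 FPKM in WT cSCC, against 99.9, 146 and 128 FPKM in WT skin. Each cSCC library was below each skin library, with TAp63-/- cSCC replicate 3 lowest and WT cSCC replicate 2 nearest to skin. The change was -4.44 ± 0.75 (log2 of FPKM + 1, SE; limma, adjusted p = 0.00172) in TAp63-/- and -3.54 ± 0.90 (limma, adjusted p = 0.0296) in WT.

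Leptin (Lep), the satiety hormone of fat, had 0.421, 0.547, 0.10 and 0.223 FPKM in TAp63-/- cSCC, against 43.8, 7.22 and 4.00 FPKM in TAp63-/- skin. It had 0.347 and 4.10 FPKM in WT cSCC, against 15.7, 41.5 and 18.1 FPKM in WT skin. Within each genotype the tissues did not overlap, and across genotypes only WT cSCC replicate 2 reached above the lowest skin library, TAp63-/- skin replicate 3. The change was -3.22 ± 0.69 (limma, adjusted p = 0.00617) in TAp63-/- and -3.18 ± 0.82 (limma, adjusted p = 0.0313) in WT. Adding 1 FPKM before the log compresses the change of a gene this low.

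Resistin (Retn), which white adipocytes secrete in mice, had 1.62, 8.74, 0.252 and 2.25 FPKM in TAp63-/- cSCC, against 179, 38.9 and 34.1 FPKM in TAp63-/- skin. It had 2.42 and 26.1 FPKM in WT cSCC, against 61.5, 80.8 and 91.4 FPKM in WT skin. Each cSCC library was below each skin library, and the highest cSCC values were WT replicate 2 and TAp63-/- replicate 2. The change passed the test in TAp63-/- at -4.31 ± 0.83 (limma, adjusted p = 0.00347) and missed it in WT at -3.02 ± 0.99 (limma, adjusted p = 0.0732).

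Adipsin (Cfd), complement factor D, was the most abundant adipocyte gene after Fabp4 in every skin library. It had 14.9, 41.6, 2.04 and 14.8 FPKM in TAp63-/- cSCC, against 1364, 204 and 225 FPKM in TAp63-/- skin. It had 17.2 and 156 FPKM in WT cSCC, against 561, 681 and 839 FPKM in WT skin. Each cSCC library was below each skin library, WT cSCC replicate 2 again lying closest to skin. The change was -4.89 ± 0.96 (limma, adjusted p = 0.00408) in TAp63-/- and, short of the threshold, -3.68 ± 1.15 (limma, adjusted p = 0.0634) in WT.

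**Figure D1:**
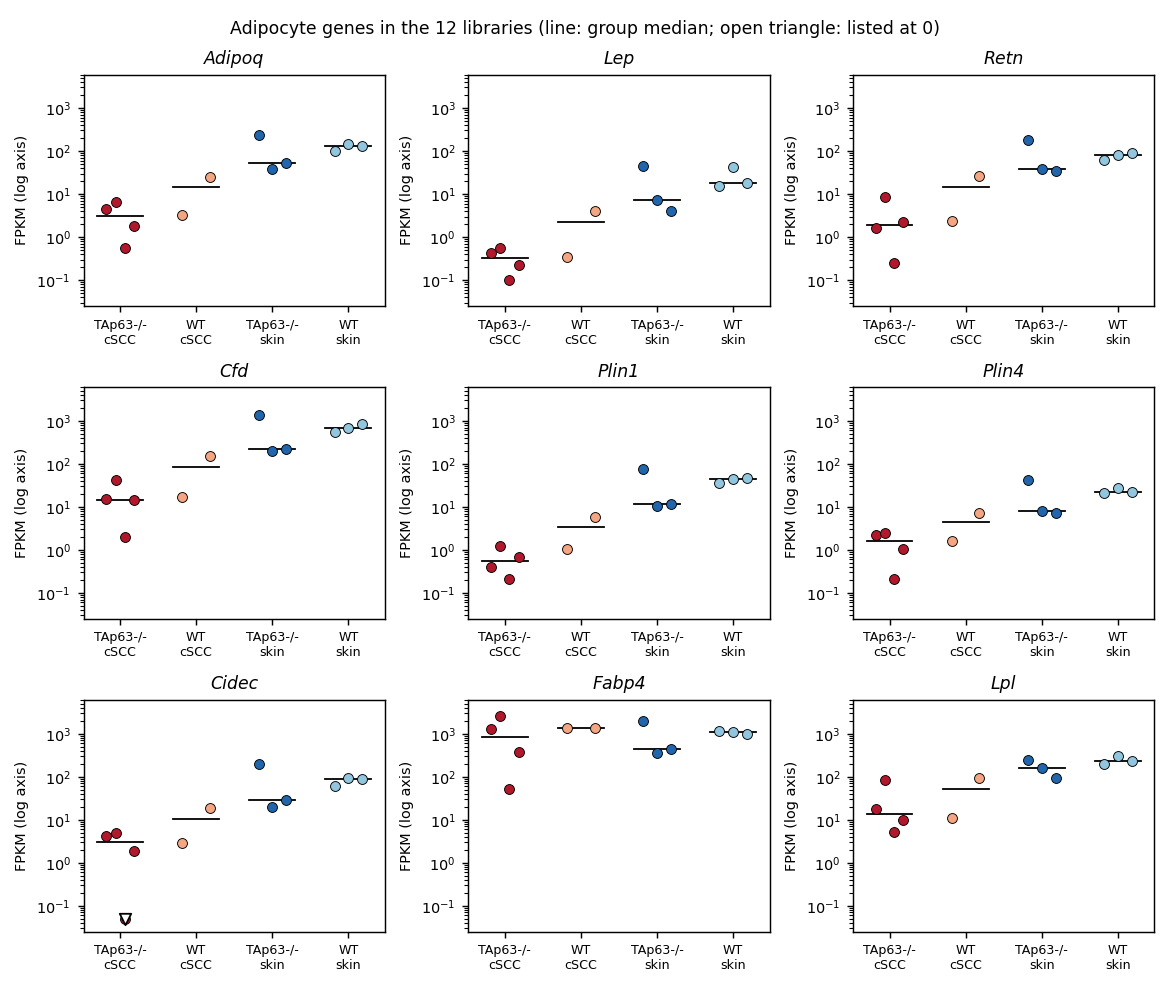
FPKM (log axis) of 9 adipocyte genes in each of the 12 libraries, by group; a point is a library, a line the group median, and the open triangle a value listed at 0. For all genes except Fabp4 the cSCC medians lie below the skin medians of both genotypes, with Adipoq at 3.08 and 14.3 FPKM in TAp63-/- and WT cSCC against 53.2 and 128 FPKM in TAp63-/- and WT skin.

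Among the lipid droplet coat proteins, perilipin 1 (Plin1), which gates lipolysis in adipocytes, had 0.396, 1.26, 0.209 and 0.696 FPKM in TAp63-/- cSCC, against 76.2, 10.4 and 11.7 FPKM in TAp63-/- skin. It had 1.03 and 5.76 FPKM in WT cSCC, against 35.0, 43.5 and 47.8 FPKM in WT skin. Each cSCC library was below each skin library, and the TAp63-/- skin group held both the highest and the lowest skin values. The change was -3.81 ± 0.62 (limma, adjusted p = 0.00127) in TAp63-/- and -3.53 ± 0.74 (limma, adjusted p = 0.0125) in WT, the smallest adjusted p of the adipocyte genes in either genotype.

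Perilipin 4 (Plin4), a droplet coat protein of white fat that muscle and heart also make, had 2.23, 2.53, 0.214 and 1.07 FPKM in TAp63-/- cSCC, against 41.7, 7.89 and 7.28 FPKM in TAp63-/- skin. It had 1.58 and 7.17 FPKM in WT cSCC, against 20.9, 27.5 and 22.5 FPKM in WT skin. The tissues did not overlap, although WT cSCC replicate 2 came close to the lower TAp63-/- skin libraries. The change was -2.66 ± 0.60 (limma, adjusted p = 0.00853) in TAp63-/- and, just short of the threshold, -2.41 ± 0.72 (limma, adjusted p = 0.0534) in WT.

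Cidec, which fuses droplets into the single large droplet of white adipocytes, had 4.23, 4.998, 0 and 1.87 FPKM in TAp63-/- cSCC, against 201, 20.0 and 29.3 FPKM in TAp63-/- skin. It had 2.82 and 18.4 FPKM in WT cSCC, against 59.8, 92.5 and 87.3 FPKM in WT skin. Each cSCC library was below each skin library, and the value listed at 0 belonged to TAp63-/- cSCC replicate 3, the lowest cSCC library for all 9 listed genes. The change was -4.04 ± 0.85 (limma, adjusted p = 0.00577) in TAp63-/- and missed the threshold in WT at -3.21 ± 1.01 (limma, adjusted p = 0.0647).

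Lipoprotein lipase (Lpl), which adipocytes, muscle and macrophages make, had 17.8, 84.1, 5.07 and 9.68 FPKM in TAp63-/- cSCC, against 241, 164 and 91.4 FPKM in TAp63-/- skin. It had 10.9 and 92.1 FPKM in WT cSCC, against 202, 297 and 231 FPKM in WT skin. Replicate 2 of each cSCC genotype was several times above the other cSCC libraries and lay beside the lowest skin library. The change was -3.11 ± 0.86 (limma, adjusted p = 0.0217) in TAp63-/-, and -2.86 ± 1.03 in WT (limma, adjusted p = 0.0969) did not pass. In TAp63-/- the call was lost without TAp63-/- cSCC replicate 3 or 4 or TAp63-/- skin replicate 1 or 2, with an adjusted p of up to 0.0851.

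Fabp4, the fatty acid carrier that adipocytes share with capillary endothelium and macrophages, behaved differently. It had 1319.7, 2639, 51.8 and 368 FPKM in TAp63-/- cSCC, against 1969, 352 and 451 FPKM in TAp63-/- skin. It had 1390.4 and 1349 FPKM in WT cSCC, against 1137, 1101 and 1011 FPKM in WT skin. The TAp63-/- groups overlapped widely, and both WT cSCC libraries were slightly above all WT skin libraries, as for 27.3% of all tested genes. The change was -0.41 ± 1.09 (limma, adjusted p = 0.81) in TAp63-/- and 0.34 ± 1.31 (limma, adjusted p = 0.897) in WT, with standard errors that leave room for changes of either sign.

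Counted together, 8 of the 9 tested adipocyte genes fell in TAp63-/- cSCC against TAp63-/- skin, where 14.2% of all 14752 genes fell and 27.2% changed in either direction. In WT cSCC against WT skin 3 of the 9 fell (Adipoq, Lep and Plin1), where 6.77% of all genes fell and 4.66% rose, and 8 of the 9 had an unadjusted p below 0.05, as did 28.1% of all genes. The same 8 genes had every cSCC library below every skin library within each genotype, as did 16.2% of all genes in TAp63-/- and 25.5% in WT. The median change of the 9 genes was -3.81 in TAp63-/- and -3.18 in WT, against 0.10 and 0.04 over all genes. As a ratio of group medians, the 8 genes were between 4.78-fold (Plin4) and 22.4-fold (Lep) lower in TAp63-/- cSCC than in TAp63-/- skin, and between 4.48-fold (Lpl) and 12.8-fold (Plin1) lower in WT cSCC than in WT skin.

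The WT count rested on few libraries. Leaving out WT cSCC replicate 1 gave 0 called genes, and leaving out WT cSCC replicate 2, the library nearest to skin, gave 8; each of these fits has a single WT cSCC library, assumed to vary like the other groups. The WT count of called adipocyte genes was 1 without any single WT skin replicate. Over all genes 748 to 994 were then called, against 1687 with all libraries. The WT count was 6 without TAp63-/- cSCC replicate 2 or 3 or TAp63-/- skin replicate 1, with 1732 to 2115 called over all genes. With the muscle score as a covariate no adipocyte gene passed in either genotype. That score did not overlap between the tissues, so this fit cannot separate muscle from tissue. With it 0 of all genes were called in TAp63-/- and 3 in WT, against 4017 and 1687 without it. With sex as a covariate 2 adipocyte genes passed in TAp63-/- (Plin1 and Retn) and 0 in WT. Over all genes 1939 and 255 then passed.

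**Figure D2:**
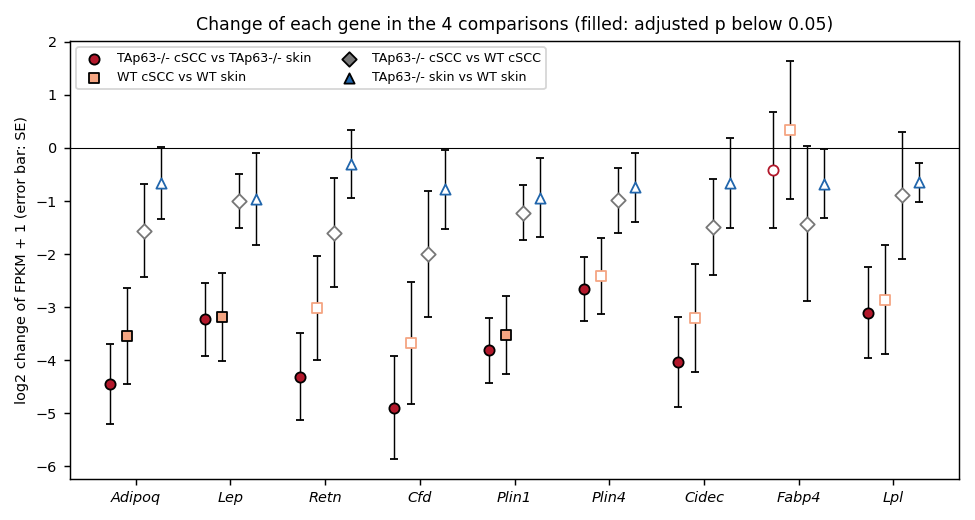
Change in log2(FPKM + 1) of 9 adipocyte genes (point) with its standard error (bar) in 4 comparisons from limma; filled points have an adjusted p below 0.05. Filled points appear only in the comparisons of cSCC with skin, 8 in TAp63-/- and 3 in WT, and Fabp4 lies near 0 in both at -0.41 and 0.34.

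Because 8 genes had every cSCC library below every skin library of the same genotype, each gene was also set against Adipoq within the same library, which removes a shared scale of adipocyte RNA. This comparison was chosen after the values were seen. Adipoq was lower in every cSCC library than in every skin library, so any gene that fell less than Adipoq gives a higher ratio. The p-value of such a ratio is therefore no separate support for a change in that gene. The Cfd to Adipoq ratio had a median of 5.68 (range 3.37 to 8.40) in the 6 cSCC libraries and 5.55 (4.23 to 6.55) in the 6 skin libraries, a log2 difference of -0.01 (exact two-sided permutation test, p = 0.957, p = 0.957 adjusted over 8 ratios). The proportion of these adipokines differed by less than the spread between libraries, while the Adipoq level ran between 0.545 and 234 FPKM. The Retn to Adipoq ratio was 0.880 (0.367 to 1.37) in cSCC and 0.678 (0.552 to 1.05) in skin, overlapping widely (exact permutation, adjusted p = 0.789).

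The Fabp4 to Adipoq ratio had a median of 254 (53.4 to 417) in cSCC and 8.44 (7.53 to 11.4) in skin. It did not overlap between the tissues and differed by 4.47 on the log2 scale (exact two-sided permutation test, p = 0.00216, the smallest that 6 against 6 allows; adjusted p = 0.00866). The difference was 4.67 within TAp63-/- and 4.09 within WT. Since Fabp4 itself was not called between the tissues, this ratio largely restates the fall of Adipoq. In skin, where the ratio varied little, Fabp4 followed the shared pattern of the adipocyte genes with r = 0.97 over 6 libraries. Over the 6 cSCC libraries r was 0.754. Fabp4 is itself part of that pattern, and both values are descriptions without a test.

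The Plin4 to Adipoq ratio was likewise higher in every cSCC library, at 0.436 (0.284 to 0.607) in cSCC and 0.183 (0.137 to 0.212) in skin, a log2 difference of 1.25 (exact permutation, adjusted p = 0.00866). The Lpl to Adipoq ratio was 4.77 (3.28 to 13.2) in cSCC and 1.91 (1.03 to 4.41) in skin, a log2 difference of 1.52 (exact permutation, adjusted p = 0.0231) with some overlap. Within TAp63-/- and within WT the differences were 1.87 and 0.83 for Lpl and 1.44 and 0.95 for Plin4, so the pooled Lpl value mixes unequal ones. These 3 ratios passed in each leave-one-out repeat. Cidec, with TAp63-/- cSCC replicate 3 left out because it was listed at 0, had 0.848 (0.728 to 1.06) in cSCC and 0.615 (0.539 to 0.860) in skin (exact permutation, adjusted p = 0.039), a call that leaving out single libraries removed (adjusted p up to 0.0857). The ratios of Plin1 and Lep differed by -0.34 and -0.40 and did not pass (exact permutation, adjusted p = 0.528 and 0.371).

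**Figure D3:**
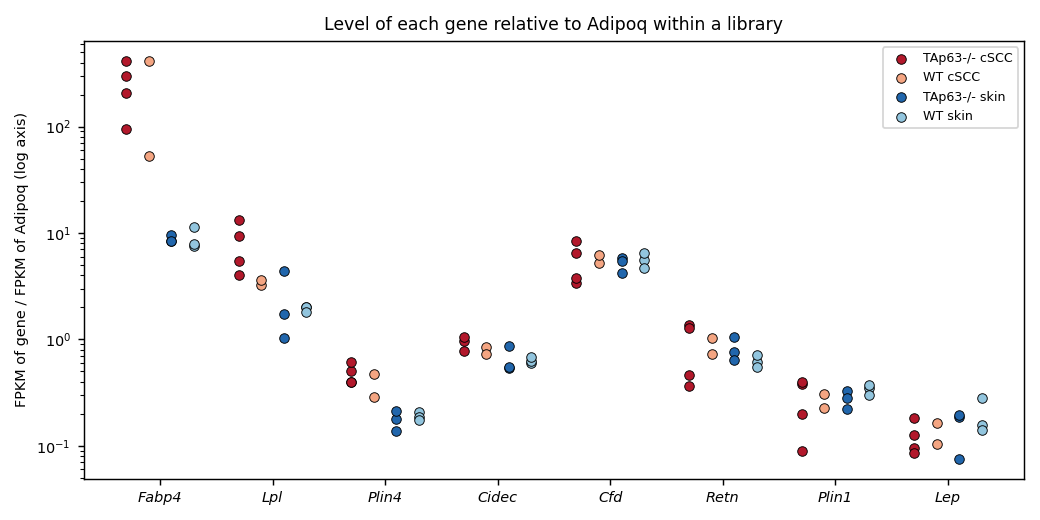
Ratio of the FPKM of 8 adipocyte genes to the FPKM of Adipoq in the same library (log axis); a point is a library, coloured by group. Fabp4 and Plin4 are higher in every cSCC library than in every skin library, with Fabp4 medians of 254 in cSCC and 8.44 in skin, while Cfd overlaps at 5.68 in cSCC and 5.55 in skin.

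Endothelial markers (10 genes, Pecam1 and Cdh5 among them) summed to 68.3 to 88.6 FPKM in TAp63-/- cSCC and 74.6 to 89.1 FPKM in WT cSCC, against 58.4 to 89.7 FPKM in TAp63-/- skin and 62.0 to 84.7 FPKM in WT skin. Of these, 1 fell in TAp63-/- (Tek), where 14.2% of all genes fell. In WT 0 changed, where 11.4% of all genes did, and limma gave 2 at an unadjusted p below 0.05, as for 28.1% of all genes. Macrophage markers (10 genes) summed to 241 to 1216 FPKM in TAp63-/- cSCC and 255 to 456 FPKM in WT cSCC, against 689 to 997 FPKM in TAp63-/- skin and 444 to 935 FPKM in WT skin. By limma 2 of the 10 fell and 1 rose in TAp63-/-, where 14.2% of all genes fell and 13% rose, and 0 were called in WT. The change was negative for 9 of the 10 in each genotype, with medians of -0.93 in TAp63-/- and -1.02 in WT. The cSCC libraries with the most and the least Fabp4, TAp63-/- replicates 2 and 3, had macrophage sums of 1216 and 241 FPKM, while WT cSCC replicate 1, second in Fabp4, had 255 FPKM, close to the lowest. The endothelial sums overlapped between the tissues, whereas Adipoq, Retn and Cfd did not. The part of either cell type in the Fabp4 values was not tested.

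In the order of group medians, the 8 genes other than Fabp4 ran alike, lowest in TAp63-/- cSCC, then WT cSCC, TAp63-/- skin and WT skin. The neighbours within a tissue did not separate. In TAp63-/- skin against WT skin limma called 0 of the 9 adipocyte genes, where 0.0203% of all genes were called (3 of 14752). None of the 9 had an unadjusted p below 0.05, a count near the background, since 738 of all 14752 genes did. No gene had every TAp63-/- skin library below every WT skin library, a pattern that 3.85% of all genes showed. The changes ran between -0.96 (Lep) and -0.30 (Retn), with adjusted p of 0.92 to 0.96.

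The TAp63-/- skin libraries of all 9 genes overlapped the WT skin libraries. Replicate 1 was the highest skin library for 8 of the 9 genes, and replicates 2 and 3 shared the lowest place for all 9. For Adipoq the mean was 108 ± 109 FPKM in TAp63-/- skin and 124.8 ± 23.4 FPKM in WT skin (SD, n = 3 each). The median change of the 9 genes was -0.67 with all libraries, -1.51 without TAp63-/- skin replicate 1, -0.30 without replicate 2 and -0.33 without replicate 3.

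Other markers varied between the same skin libraries. The hair shaft and sheath list (13 genes) had a mean log2(FPKM + 1) of 0.77, 4.83 and 6.22 in TAp63-/- skin replicates 1, 2 and 3, against 7.66, 6.09 and 3.21 in WT skin replicates 1, 2 and 3. The muscle list had 9.49, 8.46 and 8.53 in TAp63-/- skin, against 8.76, 8.77 and 8.67 in WT skin. The TAp63-/- skin library with the most adipocyte RNA was thus the one with the most muscle RNA and the least hair RNA. The part of hair cycle stage or of the piece sampled in the skin values was not tested.

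In TAp63-/- cSCC against WT cSCC limma called 0 of the 9 adipocyte genes and 0% of all 14752 genes, with 419 genes (2.84%) and none of the 9 at an unadjusted p below 0.05. The changes ran between -1.996 (Cfd) and -0.89 (Lpl), with an adjusted p of 1, and all 9 overlapped, where 4.14% of all genes had every TAp63-/- cSCC library below every WT cSCC library. WT cSCC replicate 2 was the highest cSCC library for 8 of the 9 genes, and without it the median change was -0.26, against -1.43 with all libraries and -2.37 without WT cSCC replicate 1. That library also had the highest muscle (5.71), hair (7.26) and sebaceous gland (4.02) marker means of the cSCC libraries.

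The test of whether the tumour change itself differed between genotypes called 0 of the 9 adipocyte genes, where 0.0271% of all genes were called, and none of the 9 had an unadjusted p below 0.05, as 3.01% of all genes did. The differences ran between -1.29 (Retn) and -0.04 (Lep). Their median of -0.75 turned to 0.40 without WT cSCC replicate 2 and to 0.07 without TAp63-/- skin replicate 1.

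**Figure D4:**
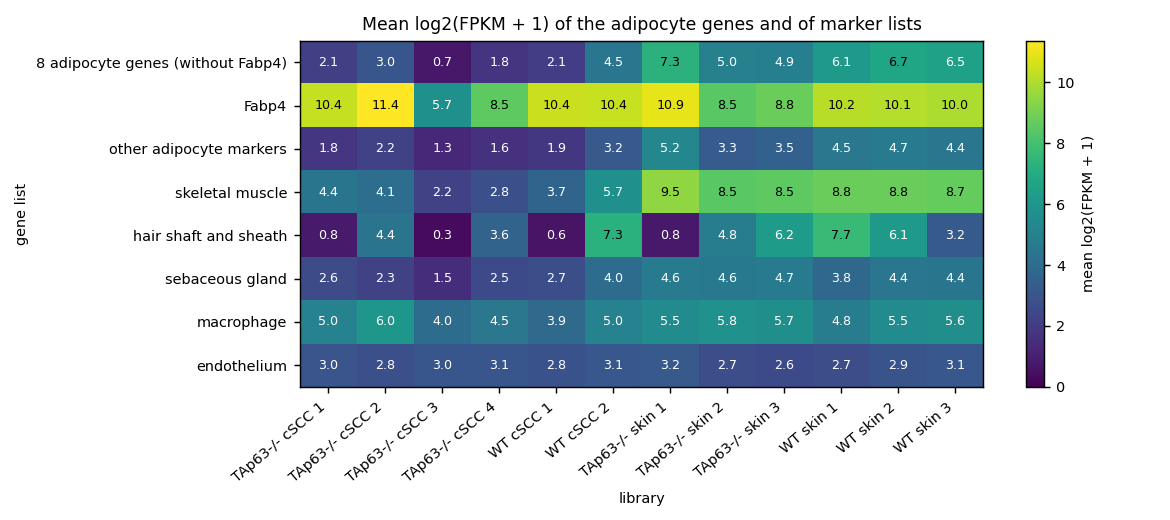
Mean log2(FPKM + 1) in each of the 12 libraries (columns, by group) for 8 adipocyte genes, for Fabp4 and for 6 marker lists (rows); brighter cells are higher. Adipocyte and muscle rows are darker in cSCC, the endothelium row is even, and WT cSCC replicate 2 has the highest muscle value of the cSCC libraries at 5.71.

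Further adipocyte markers outside these genes, many of which also stand in the lists below, had values in the same direction. Of 13, 9 fell in TAp63-/- and 3 in WT, where 14.2% and 6.77% of all genes fell. All 13 had a negative value in both, with medians of -1.91 and -1.97. Acvr1c reached 1 FPKM in no cSCC library, and Adrb3 and Slc7a10 in 1 each. These genes passed the filter through the skin libraries, which favours a fall. Their mean log2(FPKM + 1) was 1.33 to 2.22 in TAp63-/- cSCC and 1.86 to 3.16 in WT cSCC, against 3.29 to 5.24 in TAp63-/- skin and 4.45 to 4.72 in WT skin. Car3, the carbonic anhydrase of fat and muscle, was among the most abundant, at 5.21 to 199 FPKM in cSCC and 649 to 2282 FPKM in skin.

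The 8 genes outside the group whose profile was most like its mean standardised profile over the 12 libraries were Abi3 (Pearson r = 0.982), Pnpla2 (0.980), Pparg (0.9746), Ighm (0.974), Hp (0.973), Car3 (0.973), Trf (0.972) and G0s2 (0.971). Skin and cSCC form separate clusters of libraries, so the tissue difference is part of each of these values. Over the 6 skin libraries r of the 8 genes ran between 0.857 (Hp) and 0.954 (Ighm). Over the 6 cSCC libraries it ran between 0.885 (G0s2) and 0.982 (Abi3). The 8 genes were picked by their r over the 12 libraries, and none of these values carries a test. Pparg, the master regulator of adipocyte differentiation, had 0.850 to 11.4 FPKM in cSCC and 12.7 to 27.6 FPKM in skin. It fell by 2.43 in TAp63-/- (limma, adjusted p = 0.00338), and its value of -1.36 in WT did not pass (limma, adjusted p = 0.135). Pnpla2, the adipose triglyceride lipase, had 6.89 to 26.9 FPKM in cSCC and 37.9 to 157 FPKM in skin. Ighm, an immunoglobulin heavy chain of B cells, and Hp, haptoglobin, are not adipocyte lipid genes, although fat also makes Hp. Among the adipocyte genes themselves r ran between 0.955 (Lep) and 0.994 (Cidec), apart from Fabp4 at 0.542. Each of them is part of that mean profile, which raises its r, so these values are not comparable with those of the outside genes.

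Genes of lipid droplets and lipolysis fell in part, 6 of 14 tested in TAp63-/- with 1 higher, and 2 in WT with 1 higher, with median changes of -1.06 and -0.52 against the medians of 0.10 and 0.04 over all genes. Fitm1, a droplet-forming protein of muscle and fat, had 0.227 to 3.09 FPKM in cSCC and 21.7 to 29.5 FPKM in skin, reaching 1 FPKM in a single cSCC library (log2 change -4.18 in TAp63-/- and -3.36 in WT). G0s2, an inhibitor of the lipase encoded by Pnpla2, fell in both (-2.56 in TAp63-/- and -2.13 in WT). Mgll, which completes triglyceride breakdown, fell in TAp63-/- (-2.31) and had 0.46 in WT, which did not pass (limma, adjusted p = 0.545). Hilpda, a hypoxia-induced droplet protein, rose in both (1.19 in TAp63-/- and 1.73 in WT), with 14.6 to 42.1 FPKM in cSCC and 7.92 to 13.3 FPKM in skin.

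Fatty acid uptake and transport genes split by member. Of 13, 5 fell and 2 rose in TAp63-/-, and 4 fell and 2 rose in WT, with medians of -1.01 and -0.52. The insulin-responsive glucose transporter Slc2a4 (-3.34 in TAp63-/- and -2.82 in WT) and the glycerol phosphate dehydrogenase Gpd1 (-3.65 in TAp63-/- and -2.53 in WT) fell in both genotypes. Aqp7, the glycerol channel of adipocytes, also fell in both (-1.32 in TAp63-/- and -2.05 in WT). Cd36, a fatty acid translocase, fell in TAp63-/- (-3.15), and its value of -2.64 in WT did not pass (limma, adjusted p = 0.0781). Fabp5, the epidermal fatty acid carrier and close relative of Fabp4, rose by 3.13 in TAp63-/- and 2.90 in WT, with 2545 to 4510 FPKM in cSCC and 227 to 573 FPKM in skin. The glycerol kinase Gyk also rose (1.62 in TAp63-/- and 1.94 in WT).

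Of 14 triglyceride and fatty acid synthesis genes, 10 fell in TAp63-/- (median -1.85) and 3 in WT (median -0.81), and none rose in either. Gpam, which starts glycerolipid synthesis, fell in both (-2.14 in TAp63-/- and -1.29 in WT), as did Lpin1 (-1.88 in TAp63-/- and -1.31 in WT) and the triglyceride-forming Dgat2 (-1.996 in TAp63-/- and -1.73 in WT). Acacb, which makes malonyl-CoA, fell in TAp63-/- (-2.54), and its value of -1.28 in WT did not pass (limma, adjusted p = 0.0647). Sebaceous glands make lipid with the same enzymes, and 8 of 9 tested sebaceous markers fell in TAp63-/- and 2 of 9 in WT; their part in these values was not tested.

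Of 13 adipogenic transcription factors, 9 fell in TAp63-/- (median -1.36) and 2 in WT (median -1.09). Ebf2 and Klf15 fell in both (Ebf2 -1.36 in TAp63-/- and -1.09 in WT, Klf15 -1.39 in TAp63-/- and -1.21 in WT). They reached 1 FPKM in no cSCC library and so passed the filter through skin alone, as did Mlxipl and Ppargc1a of this list. Zfp423 reached 1 FPKM in 1 cSCC library. Of 14 adipokine receptors, adrenergic receptors and insulin signalling genes, 7 fell in TAp63-/- (median -0.82) and 3 in WT (median -0.64). Among the 14, Acvr1c, Gpr81 and O3far1 reached 1 FPKM in no cSCC library, and Npr3 and Adrb3 in 1 each. Irs1, the insulin receptor substrate, fell by 1.70 in TAp63-/- and 1.23 in WT. The leptin receptor Lepr fell by 2.07 in TAp63-/-, with 0.918 to 3.24 FPKM in cSCC and 5.70 to 12.7 FPKM in skin. Its value of -1.14 in WT did not pass (limma, adjusted p = 0.0602). Both WT cSCC libraries were below all WT skin libraries, as for 25.5% of all tested genes.

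Ucp1 was listed at 0 throughout, while 7 of 10 tested genes of a brown and beige fat list fell in TAp63-/- (median -1.53) and 3 in WT (median -1.12). The leading ones were Cox8b (-4.82 in TAp63-/- and -4.15 in WT) and Cox7a1 (-4.20 in TAp63-/- and -3.93 in WT), respiratory chain subunits that skeletal muscle also makes, with Cox8b at 2.23 to 31.1 FPKM in cSCC and 174 to 301 FPKM in skin. Cidea, which sebaceous glands also make, fell by 2.43 in TAp63-/-. It was not called in WT, with 11.3 and 32.3 FPKM in WT cSCC against 30.4, 36.7 and 39.4 FPKM in WT skin. The muscle markers given above fell with them, 9 of 9 in TAp63-/- and 7 of 9 in WT, and the part of muscle was not tested.

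Of 9 tested adipocyte progenitor genes, 4 fell and 1 rose in TAp63-/- (median -0.68), and 2 fell in WT (median -0.03). Cd34 and Pi16, surface markers of stromal progenitors, fell in both genotypes (Cd34 -2.61 in TAp63-/- and -1.51 in WT, Pi16 -3.02 in TAp63-/- and -2.37 in WT). Of 10 dermal fibroblast markers, 7 fell and 1 rose in TAp63-/-, and 3 fell in WT. Cd24a, which keratinocytes also express, rose by 1.38 in TAp63-/-, and its value of 1.83 in WT did not pass (limma, adjusted p = 0.0515). Of the 3 described TAp63 metabolic targets (medians -0.23 in TAp63-/- and 0.09 in WT), Prkaa2, an AMP-activated kinase subunit prominent in muscle, fell by 1.66 in TAp63-/- and 2.16 in WT, and Sirt1 and Stk11 did not pass in either. In TAp63-/- against WT, limma called 0 of the 90 tested genes of these 8 lists in skin and 0 in cSCC, with 3 in skin and 6 in cSCC at an unadjusted p below 0.05, against 738 and 419 of all 14752 genes. For the difference of the tumour change between genotypes limma called 0 of the 90. There 9 had an unadjusted p below 0.05, against 444 of all 14752 genes.

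**Figure D5:**
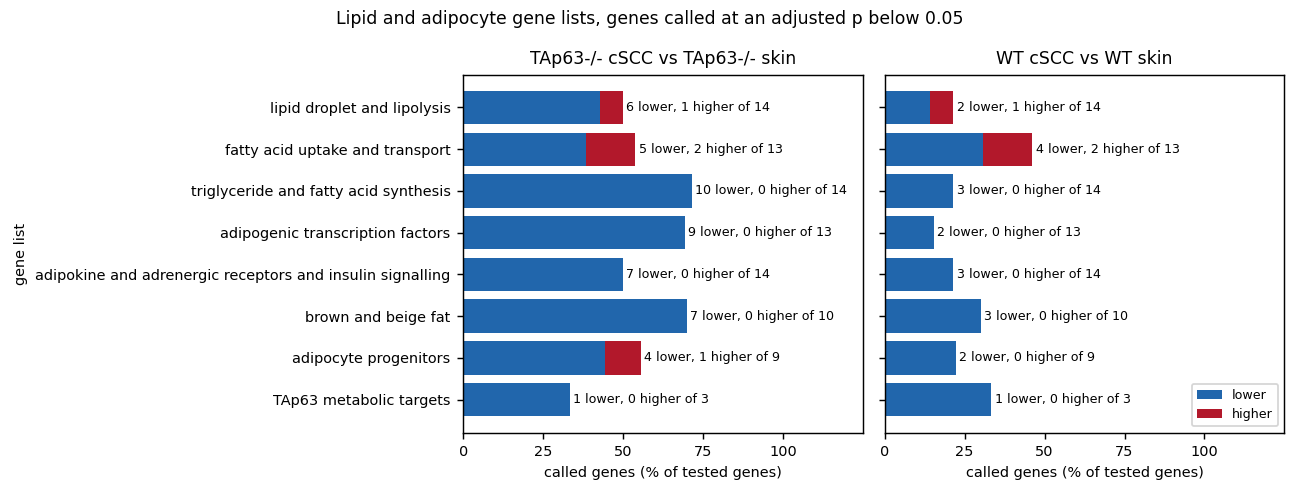
Percent of the tested genes in 8 lists that were lower (blue) or higher (red) in cSCC than in skin at a limma adjusted p below 0.05, in TAp63-/- (left) and WT (right), with the counts written beside each bar. Triglyceride and fatty acid synthesis shows 10 lower of 14 in TAp63-/- and 3 lower of 14 in WT, against 14.2% and 6.77% of all tested genes lower.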

How the data were processed

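RNA-seq of 12 libraries was deposited as a single table with 37924 entries. Per the submitters' processing notes, TopHat2 2.0, Cufflinks 2.0 and mm10 were used. The deposited values were taken as FPKM, as Cufflinks gives them; no header names the unit. After sorting, 99.985% to 100% of the values from 1 FPKM agreed within 1% between columns, so the table holds a forced common distribution, a step not given in the sources used here. It removes differences in overall level between libraries and leaves no read depth, so no count test was possible.

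Entries of a symbol were summed. log2(FPKM + 1) was fitted with limma 3.58.1 (R 4.3.3; variance trend) on all 14752 symbols reaching 1 FPKM in at least 2 libraries, with Benjamini-Hochberg adjustment over all of them and a threshold of 0.05. Comparisons within a tissue used its 6 libraries, and the others all 12. Adding 1 FPKM understates changes of low genes. Ratios to Adipoq were compared by exact two-sided permutation, adjusted over 8 ratios. The fits were tested on simulated data. The adipocyte genes and all gene lists were chosen with earlier results of these data known. Named beyond the adipocyte genes were, per list and comparison, up to 3 called genes with the smallest p in each direction (a selection of these is printed), and the 8 genes most like the mean profile. Acta1 and Krt85, of the muscle and hair lists, were not analysed here.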

Additional observations from a re-analysis of the deposited data

How the results depend on the processing

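The main counts were 8 of 9 adipocyte genes called in TAp63-/- cSCC against TAp63-/- skin and 3 in WT cSCC against WT skin; both are limited by groups of 2 to 4 libraries. The WT count was 0 without a filter on low values, 7 with array weights, 5 with the compared groups alone, 0 with sex and 0 with the muscle score as a covariate, and 0 to 8 when a library was left out. The TAp63-/- count was 2 with sex, 0 with the muscle score, and 7 to 8 when a library was left out. The sex term rested on TAp63-/- cSCC replicate 1 alone. The muscle score did not overlap between tissues, and with it 0 of all genes were called in TAp63-/- and 3 in WT. The main counts over all genes were 4017 in TAp63-/- and 1687 in WT; they were 1939 and 255 with sex, and 2432 to 4446 and 464 to 2115 when a library was left out. No adipocyte gene was called between genotypes, or in the difference between genotypes, under any alternative run.

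With the muscle score, values turned positive in WT cSCC against WT skin for Adipoq (1.32), Plin4 (1.18), Cidec (2.04), Lpl (2.25), Retn (1.64) and Cfd (2.16). In TAp63-/- cSCC against TAp63-/- skin they did so for Adipoq (2.12), Lep (0.85), Plin4 (2.19), Cidec (3.05), Fabp4 (7.46), Lpl (3.79), Retn (1.98) and Cfd (2.99), and in TAp63-/- cSCC against WT cSCC for Fabp4 (0.34) and Lpl (0.84). The difference between genotypes did so for Adipoq (0.80), Lep (1.02), Plin1 (0.69), Plin4 (1.01), Cidec (1.01), Fabp4 (1.29), Lpl (1.54), Retn (0.34) and Cfd (0.83). With sex, Fabp4 in TAp63-/- cSCC against TAp63-/- skin was 0.96. The uncalled difference between genotypes also turned for Lep, Plin1 and Plin4, to 0.29, 0.25 and 0.0742 with 5 FPKM added and to 0.71, 0.15 and 0.12 with array weights. With 1 FPKM added, the log2 difference between cSCC and skin in the ratio to Adipoq was 0.88 for Lep and 0.38 for Plin1. The cause was not tested.

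Leaving out a library turned uncalled values. Retn ran between -1.06 and 0.12 in TAp63-/- skin against WT skin, Fabp4 between -1.20 and 0.68 in TAp63-/- cSCC against TAp63-/- skin, and Lpl between -2.37 and 0.59 in TAp63-/- cSCC against WT cSCC. The difference between genotypes ran between -2.20 and 0.40 for Adipoq, -0.999 and 0.92 for Lep, -1.15 and 0.61 for Plin1, -1.08 and 0.58 for Plin4, -2.0 and 0.34 for Cidec, -1.54 and 0.34 for Fabp4, -1.73 and 1.23 for Lpl, -2.79 and 0.20 for Retn, and -2.77 and 0.34 for Cfd. The log2 differences between cSCC and skin in the ratio to Adipoq ran between -0.0235 and 0.36 for Retn and -0.14 and 0.12 for Cfd. No paired analysis was possible because the labels give the groups no shared replicate numbers.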
